A study of Mus musculus with 2 samples.

Results

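Semaphorins, plexins and neuropilins were read in single cells of the corticoseptal boundary, where cortex meets septum at the midline of the embryonic mouse brain. All genes named Sema3 to Sema7 with a letter, Plxna to Plxnd with a digit, Nrp1 and Nrp2 were taken, which gave 31 of the 32285 genes of the count files. Of these, 29 had at least 50 UMIs (counts of distinct captured transcripts) over the cells of both libraries: 19 semaphorins, 8 plexins and both neuropilins. Sema3g with 41 UMIs and Plxnb3 with 10 UMIs fell below that minimum and are not described further. The series held 1 library from wild-type (WT) embryos and 1 from Tcf4f/f;Emx1Cre embryos (Tcf4 cKO), both at E16.5. In the cKO, Cre is driven by Emx1, a gene of cortical progenitors, so the floxed Tcf4 allele is cut in these cells and all cells born from them. GABAergic neurons arise outside that lineage. The labels give neither a Cre nor a floxed allele for the WT library, and do not give the number of embryos behind either library.

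Semaphorins are secreted or membrane-bound guidance cues. Plexins are their receptors and change the cytoskeleton of the growth cone through small GTPases. Most secreted class 3 semaphorins need a neuropilin as the binding subunit beside an A-type plexin. Class 6 semaphorins are transmembrane proteins that bind A-type plexins directly, and they can also act as receptors. At the midline, class 3 semaphorins and neuropilin 1 are known for guiding callosal axons.

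After filtering, 8640 WT cells (median 9661.5 UMIs) and 10146 cKO cells (median 8152.5 UMIs) remained, and the members held 147752 UMIs in them. The libraries shared 22 cell barcodes. Cells of both libraries were clustered together without the members and without Tcf4 among the genes used, and 24 of 33 clusters were named from marker genes as 9 cell classes. Unnamed clusters held 24.4% of WT and 23.8% of cKO cells. Free RNA was estimated at 2.27% of a neuron's UMIs in WT and 1.20% in cKO. Tcf4 was at 2845 UMIs in every 1000000 (CPM) in WT and 1904 in cKO glutamatergic neurons, at 2803 and 1678 in intermediate progenitors, and at 537 and 508 in GABAergic neurons. The GABAergic value averages clusters that went both ways. The ratio of cKO to WT was 0.78 and 0.81 in clusters 0 and 6, and 1.68 and 1.32 in clusters 10 and 26. In clusters 22 and 23 it was 0.99 and 1.05, with intervals that include equal levels. Tcf4 reads come from the 3' end of the transcript and need not cover the deleted part, so they check the deletion only in part.

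The 10 glutamatergic marker genes summed to 3600 and 4375 CPM in glutamatergic neurons, against 472 and 560 in GABAergic neurons. They also served to name the clusters, so these sums describe the classes and do not check them. Levels are UMIs of a gene as CPM of all UMIs of the same class and library, with exact 95% Poisson intervals, and ratios are cKO over WT with exact 95% conditional intervals. Both cover counting error only. With a single library per genotype there are no replicates and no test, and a ratio compares these libraries rather than the genotypes. A gene was called higher or lower when it had at least 50 UMIs in the class, differed by at least 1.5-fold and had an interval that left out 1.

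Tcf4 encodes a basic helix-loop-helix protein of the E-protein family, which binds DNA at E-boxes, written CANNTG. The bases before a transcript start are shown for Sema6d, Sema3a and Sema5a, with E-box letters in capitals. Sema6d was called lower in cKO in 4 classes, and Sema3a and Sema5a higher in 4 classes each. Some of these calls were lost in other settings, as given further on. Sema6d had 2 promoter windows, and only the one with the lower start position is shown. The stretches come from RefSeq on GRCm38.p6, plus strand: Sema6d chr2:124089719-124089968, Sema3a chr5:13396534-13396783 and Sema5a chr15:32244563-32244809, the last stopping before the first annotated exon. The Sema6d and Sema5a stretches end where the annotated genes begin (chr2:124089969-124667770 and chr15:32244810-32696341), while the RefSeq start of Sema3a lies inside its annotated span (chr5:13125414-13602565).
Sema6d: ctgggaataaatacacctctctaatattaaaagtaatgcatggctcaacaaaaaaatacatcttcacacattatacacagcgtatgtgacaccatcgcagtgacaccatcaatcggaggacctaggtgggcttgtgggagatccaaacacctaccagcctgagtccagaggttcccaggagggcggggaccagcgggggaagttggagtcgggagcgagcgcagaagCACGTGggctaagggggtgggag
Sema3a: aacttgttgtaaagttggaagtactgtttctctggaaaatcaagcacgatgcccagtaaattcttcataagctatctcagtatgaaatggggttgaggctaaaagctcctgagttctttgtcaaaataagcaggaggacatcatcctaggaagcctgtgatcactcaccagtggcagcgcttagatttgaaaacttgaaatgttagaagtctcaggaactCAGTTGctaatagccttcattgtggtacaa
Sema5a: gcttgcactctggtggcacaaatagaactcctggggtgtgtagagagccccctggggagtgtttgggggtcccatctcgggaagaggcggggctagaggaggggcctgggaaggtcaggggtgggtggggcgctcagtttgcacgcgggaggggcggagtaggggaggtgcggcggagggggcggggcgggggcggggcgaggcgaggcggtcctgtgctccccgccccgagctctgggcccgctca
The Sema6d stretch held 1 E-box (CACGTG), the Sema3a stretch held 1 (CAGTTG), and the Sema5a stretch held 0. CANNTG, which reads the same on both strands, occurred in 66.2% of all 32851 promoter windows of 250 bases and in 17 of the 35 windows (48.6%) of the 24 members with an entry. A match in so short a window is a description and says nothing of binding.

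In the WT library the members were divided between cell classes, as the map of WT levels shows. Among the secreted ligands, Sema3c was at 166 CPM (interval 160 to 172) in glutamatergic neurons and at 3.79 in cycling progenitors. Sema3a, the classical repellent for cortical axons, was highest among named classes in intermediate progenitors at 19.0 CPM (15.3 to 23.2), and was at 1.86 in GABAergic neurons. Sema3f was highest in ependymal or choroid plexus cells at 18.9 CPM (10.6 to 31.1). Sema3b, Sema3d and Sema3e were scarce, with 134, 102 and 202 UMIs in all, and Sema3e reached 9.34 CPM in an unnamed neuronal cluster (cluster 3) described further on. Ligands of one chromosomal neighbourhood did not share a pattern: Sema3d, Sema3a, Sema3e and Sema3c lie in that order on chromosome 5 between 12383385 and 17730268 (GRCm38), and only Sema3c passed 100 CPM in a neuron class.

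The membrane-bound ligands split between glia, progenitors and neurons. Sema6a was at 341 CPM (305 to 380) in Cajal-Retzius cells, which lie at the cortical surface and make reelin, at 132 in oligodendrocyte progenitors, at 93.9 in astroglia and at 6.55 in glutamatergic neurons. Sema6d was at 96.5 CPM (70.1 to 130) in oligodendrocyte progenitors, at 63.0 in astroglia and at 61.9 in glutamatergic neurons. It was at 193 CPM (171 to 217) in an unnamed cluster led by the vascular genes Cldn5 and Rgs5 (cluster 28, 56 WT and 38 cKO cells). Sema5b was at 32.7 CPM both in astroglia and in cycling progenitors, with 4.50 in glutamatergic neurons. Sema4d, the ligand of B-type plexins, was highest in microglia and macrophages at 34.3 CPM (20.7 to 53.6), and Sema7a, the GPI-anchored ligand of Plxnc1, in glutamatergic neurons at 33.6 CPM. Among named classes, Sema4g was highest in glutamatergic neurons at 44.5 CPM, Sema4a in GABAergic neurons at 11.6 and Sema4b in intermediate progenitors at 26.1. Some leads were within counting error. Sema4c was at 42.4 CPM in GABAergic and 42.2 in glutamatergic neurons, Sema6c at 68.2 in Cajal-Retzius cells (52.7 to 87.0) and 51.1 in GABAergic neurons (47.7 to 54.8), and Sema6b at 14.7, 13.3 and 12.7 in Cajal-Retzius cells, glutamatergic and GABAergic neurons. Sema4f was at 12.6 CPM in Cajal-Retzius cells (6.51 to 22.0) and at 7.51 in glutamatergic neurons, with intervals that overlap.

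Most receptors were highest in neurons, with exceptions in glia and vessels. Nrp1, the Sema3A-binding subunit, was at 281 CPM in glutamatergic neurons, 133 in GABAergic neurons and 9.58 in intermediate progenitors. Nrp2, which binds Sema3F and Sema3C, was at 154 CPM in GABAergic and 107 in glutamatergic neurons, and at 63.4 in astroglia. Unnamed clusters held more of it: 396 CPM in cluster 19 and 313 in cluster 13, both nearest to GABAergic neurons, and 321 in cluster 3. Plxna2 and Plxna4, signalling partners of the neuropilins, were highest among named classes in glutamatergic neurons at 310 and 138 CPM, and Plxna1 in GABAergic neurons at 45.4. Plxna3 was at 45.1 CPM (32.7 to 60.8) in Cajal-Retzius cells and at 38.3 (35.4 to 41.4) in glutamatergic neurons, levels that do not differ beyond counting error. The Sema7A receptor Plxnc1 was at 66.4 CPM in astroglia and 55.3 in GABAergic neurons, against 5.29 in glutamatergic neurons and 114 in cluster 13. Plxnb1 was highest in astroglia at 46.0 CPM, and Plxnb2 in ependymal or choroid plexus cells at 137 and in microglia and macrophages at 134. Plxnd1, the Sema3E receptor of blood vessels, was at 135 CPM in cluster 28 and at 72.4 in Cajal-Retzius cells, while glutamatergic neurons held 1.86. An unnamed cluster of 43 WT and 4 cKO cells led by the melanocyte genes Mlana, Dct and Tyr (cluster 32) had 132 CPM of Sema5a and 44.5 of Sema3a in WT.

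**Figure D1:**
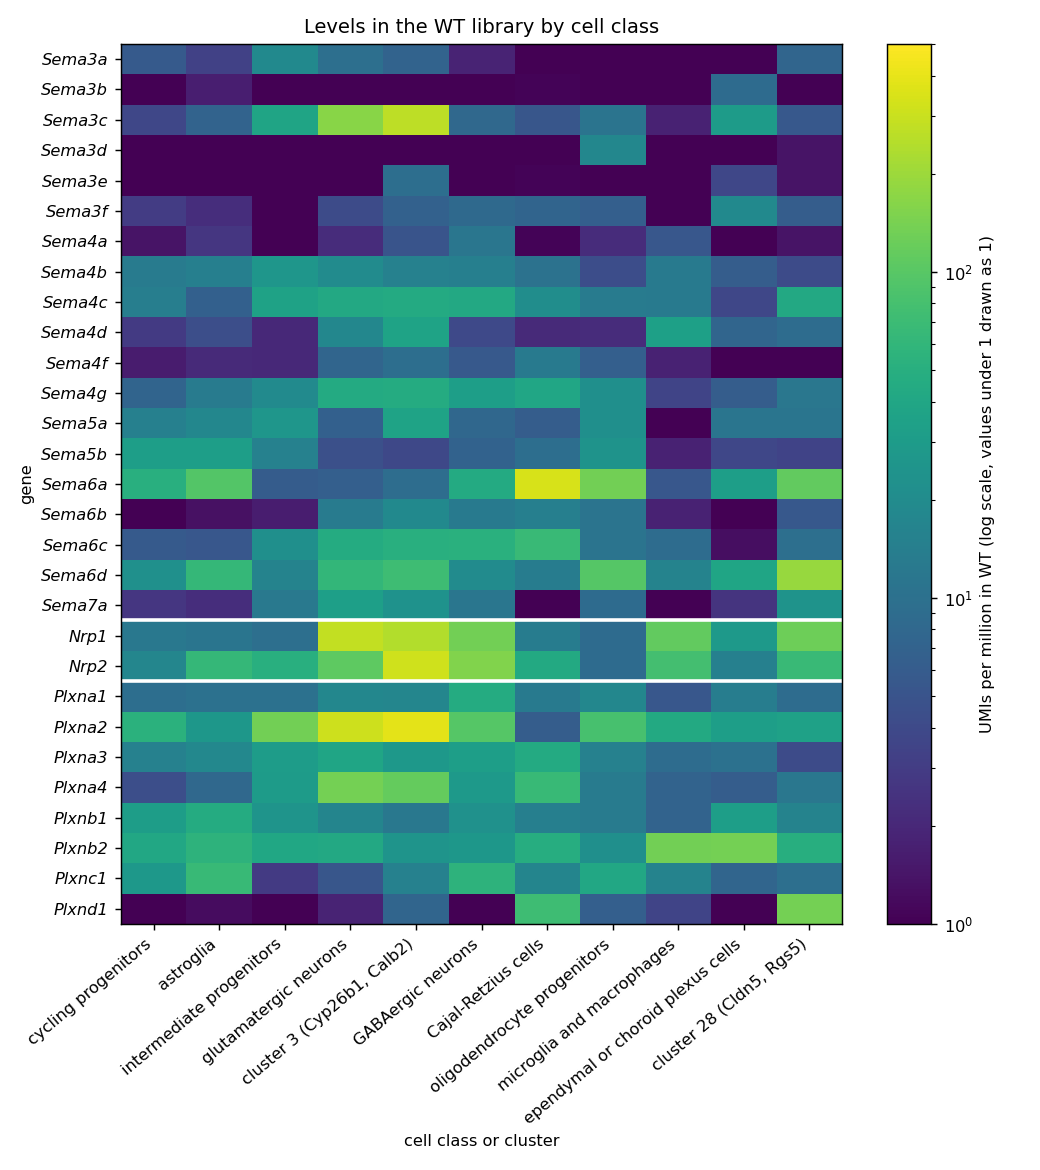
Level of the 29 members in the WT library, in CPM on a log color scale, by cell class (columns), with semaphorins, neuropilins and plexins as blocks of rows. Sema6a stands out in Cajal-Retzius cells (341), Nrp1 and Plxna2 in glutamatergic neurons (281 and 310), and Plxnd1 in cluster 28 (135).

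Glutamatergic neurons of the cKO library had less RNA of the receptors Plxna2 and Nrp1 and of the ligands Sema6d and Sema4d, and the Nrp1 difference was not called in clusters that both libraries share. Plxna2 was at 310 CPM in WT and 141 in cKO, a ratio of 0.46 (0.43 to 0.48). Sema6d was at 61.9 and 17.6 CPM, a ratio of 0.28 (0.25 to 0.32), and Nrp1 at 281 and 146 CPM, a ratio of 0.52 (0.50 to 0.55). Sema4d went from 17.8 CPM in WT to 11.1 in cKO (0.62, 0.52 to 0.74). Called higher were the ligands Sema3a (9.73 and 17.2 CPM, ratio 1.77), Sema3f (4.14 and 9.07 CPM, ratio 2.19) and Sema5a (6.67 and 12.2 CPM, ratio 1.84). The Sema3a and Sema5a calls were each lost in 8 of 14 other settings, with ratios below 1 in 2 of them for Sema3a and in all 8 for Sema5a, and the Sema4d ratio was 0.88 without the clusters that come over 90% from a single library. In all, 7 of 25 members counted were called, 3 higher and 4 lower, beside 7.63% of all genes in this class (3.9% higher and 3.73% lower). The median log2 ratio was -0.05 over members and -0.01 over all genes counted. Plxna4, the other abundant A-type plexin, was at 138 and 111 CPM and was not called. Median depth was 10096 UMIs in WT and 7720 in cKO cells of the class, GABAergic markers summed to 51.1 and 61.9 CPM in it and intermediate progenitor markers to 667 and 771, and the part of these in the ratios was not tested.

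The class is not made of the same cells in both libraries. Cluster 7 held 763 WT and 3 cKO cells, and clusters 9 and 24 held 7 and 16 WT against 683 and 223 cKO cells. Genes of deep-layer and corticofugal neurons were higher in cKO for 8 of 14 counted, and none was lower. How far this makeup sets the class ratios was not tested, but the clusters that both libraries share give values of their own.

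Plxna2 and Sema6d were lower within those shared clusters, and Nrp1 was not called in them. In cluster 1, young neurons with Neurod1 and Unc5d (439 WT and 903 cKO cells), Plxna2 was at 267 CPM in WT and 156 in cKO (ratio 0.58, 0.53 to 0.64). In cluster 8, with Sln, Pdzrn3 and Rnd2 among its leading genes (314 and 427 cells), Plxna2 was at 449 and 206 CPM (0.46, 0.42 to 0.51). Sema6d was at 68.0 and 24.3 CPM in cluster 1 (0.36) and at 128 and 31.8 in cluster 8 (0.25). Nrp1 stood at 51.5 and 44.8 CPM in cluster 1 and at 281 and 235 in cluster 8, ratios of 0.87 and 0.84. Over the class without the clusters of a single library, the Nrp1 ratio was 0.70 and no longer past 1.5-fold. Intermediate progenitors, the step before, had 134 and 120 CPM of Plxna2, a ratio of 0.90 (0.80 to 1.00). In cluster 1, 6 of 23 members were called, beside 5.77% of all genes, and in cluster 8, 4 of 19, beside 6.67%.

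The ligands of young neurons differed as well. Sema3a was higher in cKO in cluster 1 (19.4 and 31.8 CPM, ratio 1.64) and in cluster 8 (ratio 2.42, 1.57 to 3.80). Sema5a was higher in cluster 1 (7.39 and 26.5 CPM, ratio 3.58) but not called in cluster 8 (9.54 and 11.5 CPM). Sema6a and Sema5b were lower in cluster 1, at 16.6 and 6.27 CPM and at 10.95 and 6.88, and Nrp2 in cluster 8, at 40.3 and 26.5. Sema3c, a secreted ligand that attracts cortical axons, was at 204 and 211 CPM in cluster 1 and at 222 and 169 in cluster 8, and was not called in either. Sema3f had too few UMIs in clusters 1 and 8 to be counted there.

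**Figure D2:**
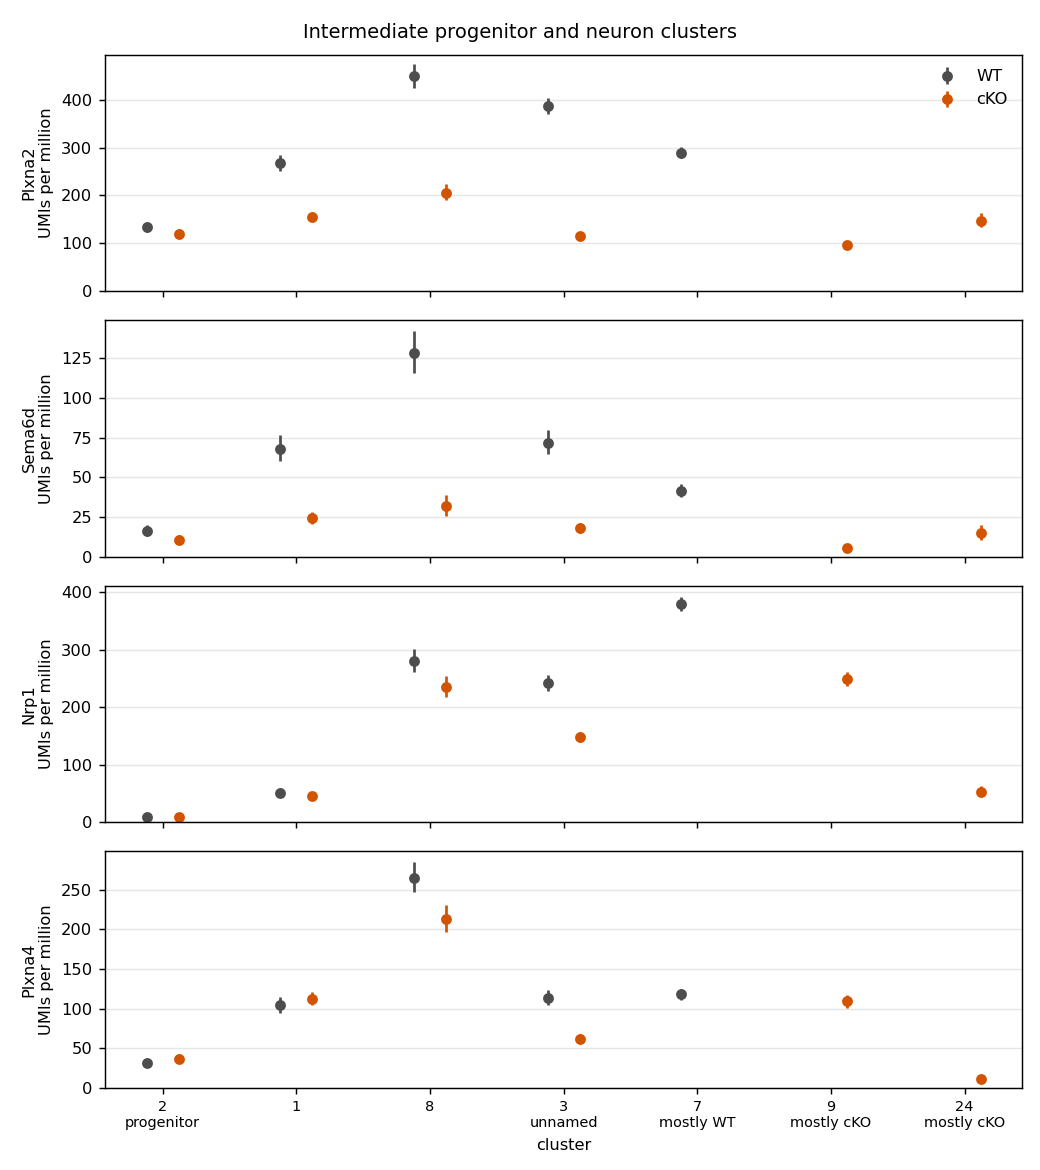
Plxna2, Sema6d, Nrp1 and Plxna4 in CPM in the WT library (grey) and the cKO library (orange), by cluster, with 95% Poisson intervals as bars. Clusters with under 20 cells in a library have no point for it. Plxna2 and Sema6d are lower in cKO in clusters 1, 8 and 3, whereas Nrp1 is close in clusters 1 and 8 and lower in cluster 3.

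Cluster 3 had more called members than any of the 5 large classes. It held 333 WT and 751 cKO cells and was led by Cyp26b1, Calb2 and Crym. It stayed unnamed because Calb2, a marker of Cajal-Retzius cells, was among its leading genes and no glutamatergic marker was. By its markers as a whole it was nearest to glutamatergic neurons. Here 11 of 26 members counted were called, 9 lower and 2 higher, beside 9.72% of all genes (4.33% higher and 5.39% lower). Sema5a, a transmembrane ligand with thrombospondin repeats, was at 36.7 CPM in WT and 2.86 in cKO, a ratio of 0.08 (0.05 to 0.12). Sema3e was at 9.34 and 1.74 CPM (0.19), and its receptor Plxnd1 at 7.51 and 2.98 CPM (0.40). Of the receptors, the A-type plexins went both ways, with Plxna2 and Plxna4 lower, Plxna1 higher and Plxna3 not called, and of the neuropilins Nrp1 was lower while Nrp2 was not called (321 and 264 CPM). The lower ones were Plxna2 at 386 and 116 CPM (0.30), Plxna4 at 114 and 61.9 (0.54) and Nrp1 at 242 and 148 (0.61). Sema3c (267 and 155 CPM), Sema6d (71.8 and 17.9 CPM) and Sema3a (7.31 and 3.36 CPM) made up the rest of the lower members. Plxna1, at 17.5 and 29.6 CPM, and Sema6a, at 9.13 and 17.3, were higher. Of the list of position genes, Zic4 and Emx2 were also higher and Emx1 lower in the cKO cells of this cluster (Zic4 30.4 and 65.1 CPM, Emx1 75.7 and 46.6), and their part in these ratios was not tested.

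Intermediate progenitors had 3 of 19 members called, beside 4.77% of all genes (1.99% higher and 2.78% lower). Sema5a was at 26.3 CPM in WT and 73.0 in cKO, a ratio of 2.77 (2.27 to 3.41), and was the only member called higher. Plxnb2, a receptor of class 4 semaphorins, was at 40.8 and 26.7 CPM (0.65), and Sema6d at 16.1 and 10.3 CPM (0.64). The Plxnb2 call was lost in 8 and the Sema6d call in 5 of 14 other settings. Sema3a stood at 19.0 and 19.6 CPM here, and Emx1 itself at 266 and 164.

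**Figure D3:**
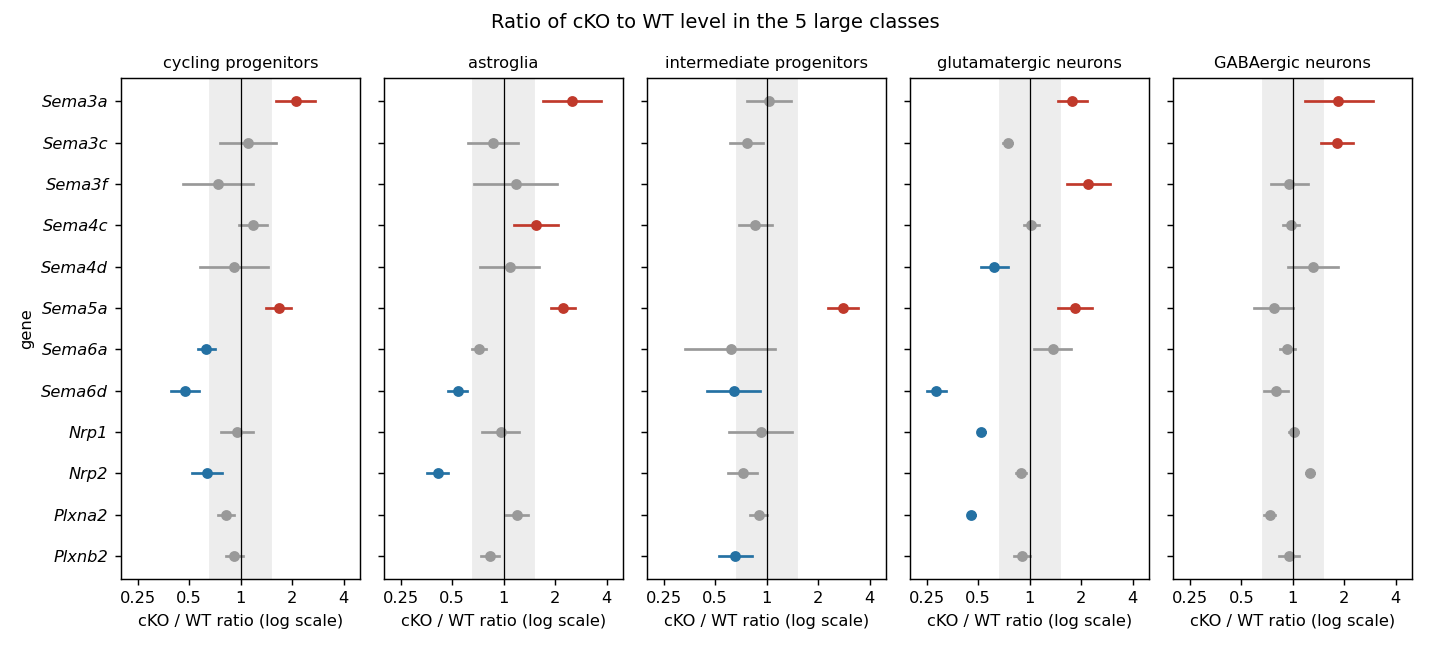
Ratio of cKO to WT level (log axis) with 95% conditional intervals for the 12 members called in at least 1 of the 5 large classes. Red marks calls higher in cKO, blue calls lower, grey no call, and the grey band spans 1.5-fold either way. Sema6d is lower in 4 classes and Sema5a higher in 4, while GABAergic neurons show calls only for Sema3a and Sema3c. Some of these calls were lost in other settings.

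Sema6d, Sema5a and Sema3a also differed in astroglia, the glial lineage that includes the midline glia, and in cycling progenitors. In astroglia 5 of 22 members counted were called, beside 6.76% of all genes (2.03% higher and 4.73% lower). Nrp2 was at 63.4 CPM in WT and 26.2 in cKO (0.41, 0.36 to 0.47), and Sema6d at 63.0 and 34.1 (0.54, 0.48 to 0.61). Sema5a was at 17.9 and 39.7 CPM (2.22, 1.88 to 2.61), Sema3a at 3.30 and 8.25 (2.50, 1.71 to 3.69), and Sema4c at 6.69 and 10.3 (1.54, 1.15 to 2.07). In cycling progenitors 5 of 22 were called, beside 3.99% of all genes (1.22% higher and 2.78% lower). Sema6d was at 22.7 and 10.8 CPM (0.47), Sema6a at 50.3 and 31.7 (0.63), and Nrp2 had a ratio of 0.64 (17.1 CPM in WT). Sema3a was at 5.78 and 12.1 CPM (2.1) and Sema5a at 14.8 and 24.8 (1.67).

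The astroglial Nrp2 and Sema6d ratios depended on how the clusters were weighted. Cluster 21, led by Fgf17, Fgf8 and Igfbp5, held 280 WT and 89 cKO cells and had the most Nrp2 of the astroglia, 239 CPM in WT and 176 in cKO. It also had the most Sema6d, at 162 and 137 CPM. Within that cluster the ratios were 0.73 and 0.84, and neither was called. The part of cluster 21 in the class ratios was not tested. With clusters weighted equally, both ratios were 0.81 in the class and neither was called. The same weighting gave 1.45 for Sema5a and 1.32 for Sema4c, neither of them called, and 1.58 for Sema3a. The Sema4c call was lost in 8 of 14 other settings. Equal weighting in cycling progenitors gave 0.82 for Sema6a, which was then not called. Meningeal fibroblast markers summed to 28.5 CPM in WT and 10.8 in cKO astroglia and endothelial markers to 1.38 and 1.55, and red-cell markers to 783 and 3592. The part of the first and the last in these ratios was not tested.

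The 12 astroglial, cycling and intermediate progenitor clusters, unnamed clusters nearest to these included, with at least 50 cells per library were divided at 50 CPM of Emx1 in both libraries together, a limit set after the values had been seen. It gave 6 clusters with Emx1 at 60.4 to 213 CPM and Six3, a septal gene, at 4.70 to 21.5, and 6 clusters with Emx1 at 3.13 to 29.3 and Six3 at 171 to 529. The Tcf4 ratio was 0.58 to 0.71 in the first group and 0.84 to 1.19 in the second.

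Sema5a was called higher in cKO in 6 of 6 clusters with high Emx1, with ratios of 1.64 to 3.52, and in none of the 5 counted clusters with low Emx1, with ratios of 1.02 to 1.40. In the astroglial cluster 14 (Hopx, Tnc, Aldoc) it was at 18.3 CPM in WT and 59.8 in cKO. In the astroglial cluster 15 (Creg2, Mt3, Hhip), where Emx1 was at 3.13 CPM, it was at 55.9 and 56.9. The cKO level of cluster 14 thus lay inside the interval of cluster 15 in both libraries. Cluster 15 held the most Sema5a of the clusters with low Emx1, where medians over clusters were 13.3 CPM in WT and 15.2 in cKO.

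Sema6a went the other way. It was called lower in 5 of 6 clusters with high Emx1, with ratios of 0.27 to 0.38, but not in the intermediate progenitors (cluster 2, 6.12 and 3.76 CPM, ratio 0.61, 0.33 to 1.12), and in 1 of 6 with low Emx1 (cluster 12, ratio 0.65, 0.44 to 0.96). It was at 36.9 and 10.0 CPM in cluster 14, at 42.4 and 15.6 in the cycling cluster 11, and at 22.9 and 8.75 in the unnamed cluster 4 (Neurog2, Wnt8b, Hopx). In clusters 15 and 20 it was at 123 and 132 CPM and at 106 and 125. WT levels of Sema6a ran from 6.12 to 42.4 CPM in the first group of clusters and reached 123 in the second.

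Sema3a was called higher in 5 of 6 clusters with high Emx1, with ratios of 1.60 to 1.86 and levels of 6.42 to 11 CPM in WT and 11.6 to 19.4 in cKO. The exception was again the intermediate progenitors, at 19.0 and 19.6 CPM. The clusters with low Emx1 held at most 1.07 CPM in WT and 1.86 in cKO and had too few UMIs to be counted. Sema6d was called lower in 3 of the 4 counted clusters with high Emx1 and in 1 of 5 with low Emx1 (cluster 20, 66.2 and 38.7 CPM). Nrp2 had no common direction: it was higher in clusters 11 (2.61 and 9.08 CPM) and 15 (6.21 and 22.1) and lower in clusters 17 (29.3 and 15.1) and 20 (ratio 0.43). In cycling progenitors as a class its ratio turned to 2.09 with the UMI minimum doubled, and in astroglia to 1.10 with labels taken from WT clusters. The share of all genes called was 4.77%, 4.17%, 3.77%, 4.26%, 4.53% and 5% in the clusters with high Emx1 (2, 4, 11, 14, 16 and 18), and 3.27%, 2.56%, 4.64%, 3.12%, 4.44% and 6.41% in those with low Emx1 (5, 12, 15, 17, 20 and 21). The difference between the groups of clusters was not tested, since each library is a single sample.

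**Figure D4:**
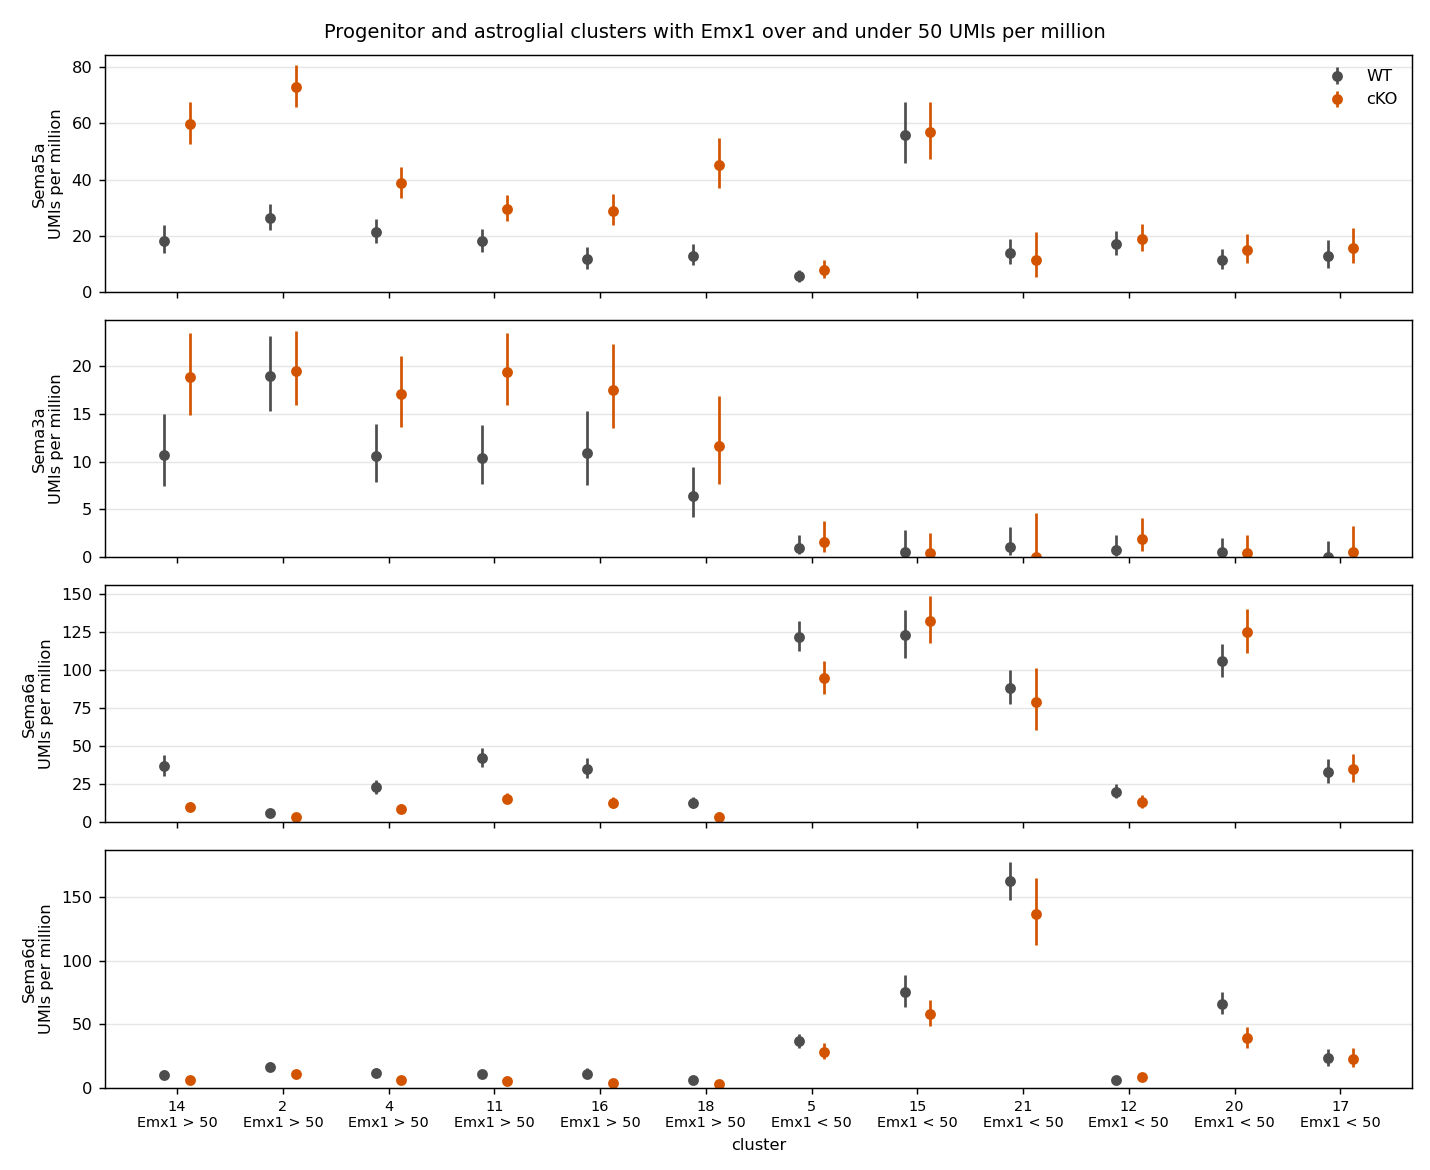
Sema5a, Sema3a, Sema6a and Sema6d in CPM in WT (grey) and cKO (orange), with 95% Poisson intervals, in 6 progenitor and astroglial clusters with Emx1 over 50 CPM (left) and 6 under 50 CPM (right). On the left, Sema5a lies higher in cKO in all 6 clusters, and Sema3a was called higher and Sema6a lower in all but cluster 2 (intermediate progenitors). Sema5a is at 55.9 and 56.9 in cluster 15 on the right, the highest of the clusters on that side.

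GABAergic neurons, which arise outside the Emx1 domain, had 2 of 25 members called, beside 3.89% of all genes (2.73% higher and 1.16% lower). Sema3a was at 1.86 CPM in WT and 3.44 in cKO (1.85, 1.17 to 2.96), and Sema3c at 8.08 and 14.7 (1.82, 1.47 to 2.26). In cluster 26, which held 22 WT and 154 cKO cells, Sema3c was at 64.3 and 111 CPM. The part of this cluster in the class ratio was not tested. With clusters weighted equally neither Sema3a nor Sema3c was called (1.70 and 1.21). Nrp1, Plxna2 and Sema6d, lower in glutamatergic neurons, had ratios of 1.01, 0.73 and 0.80 here. Cajal-Retzius cells, of which 72 WT and 63 cKO cells were found, had no called member among the 8 counted, beside 4.62% of all genes. All 8 had ratios under 1, with a median log2 ratio of -0.33 over members and 0.02 over all genes counted. Sema6a was at 341 and 331 CPM in these cells, and Tcf4 at 456 and 209.

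Of the 29 members, 17 were called in none of the 5 large classes, among them the receptors Plxna1, Plxna3, Plxna4, Plxnb1, Plxnc1 and Plxnd1. Of all genes, 3.89% to 7.63% were called in each of these classes, and the share called in none was not computed. Some of the 17 were scarce, so the lack of a call says little of them. Plxnd1 was at most 1.86 CPM in these classes in WT, and Sema3b, Sema3d and Sema3e had 134, 102 and 202 UMIs in all. Sema6c and Sema4g were nearly equal in glutamatergic neurons, with ratios of 1.03 (0.94 to 1.14) and 0.99 (0.89 to 1.09). Sema4b had ratios of 0.75 to 1.12 over the large classes, and Sema5b of 0.74 to 1.06. Plxnb1 had ratios of 0.88 to 1.06.

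Partners of these receptors outside the families were read from a list of 13 coreceptors, adhesion molecules that bind neuropilins or plexins among them. In glutamatergic neurons Cntn2 (TAG-1), an axonal adhesion molecule, was at 338 CPM in WT and 64.3 in cKO, a ratio of 0.19. Cntn2 was among the leading genes of cluster 7 (763 WT and 3 cKO cells) and of cluster 8 (314 and 427). The part of this makeup in its ratio was not tested. Nrcam was at 34.4 and 67.5 CPM in the class, and Met at 0.36 and 3.54. The count was 2 higher and 1 lower of 7, beside 3.9% and 3.73% of all genes. In intermediate progenitors 3 of 6 were lower and none was higher, beside 2.78% and 1.99% of all genes: L1cam, the neuropilin 1 partner, at 43.4 and 24.1 CPM, Chl1 at 43.8 and 24.3, and Cntn2 at 16.7 and 7.15. Cntn2 was lower in astroglia and cycling progenitors too, at 3.46 and 0.97 and at 3.59 and 1.75 CPM, and in cluster 3, at 308 and 47.3. Beside the 6.76% of all genes called in them, astroglia had 3 of 9 called. Among these L1cam was higher (2.54 and 5.34 CPM) and Kdr lower (11.9 and 7.57). Cycling progenitors had 1 of 9 called beside 3.99%, and cluster 3 had 2 of 6 beside 9.72%. In GABAergic neurons none of the 7 counted was called, beside 3.89%.

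Genes that act inside the cell below the plexins (collapsin response mediators, MICALs, Rnd GTPases, kinases) were read from a list of their own. Of the list of 36, 32 were counted in glutamatergic neurons, of which 2 were called beside 7.63% of all genes, with Rnd1 higher (4.50 and 8.27 CPM) and Mical2 lower (7.87 and 1.34). In intermediate progenitors 3 of 30 were called, beside 4.77% of all genes, all of them lower: Dpysl3 (292 and 189 CPM), Rnd3 (241 and 136) and Farp2 (9.18 and 3.20). Astroglia had 1 of 34 called, beside 6.76% of all genes, with Rhod higher (3.15 and 5.14 CPM). None of the 34 counted in cycling progenitors and none of the 31 in GABAergic neurons was called, beside 3.99% and 3.89% of all genes. In cluster 3 Mical2 (21.9 and 1.62 CPM), Rnd3 (123 and 51.2) and Arhgef11 (22.9 and 15.2) were lower, 3 of 32 called beside 9.72% of all genes. Of 8 genes of pallial and septal position, none of the 7 counted in glutamatergic neurons was called, beside 7.63% of all genes. None of the 8 was called in astroglia, cycling progenitors or GABAergic neurons, beside 6.76%, 3.99% and 3.89%. At those shares, a lack of calls among so few genes says little. In intermediate progenitors 1 of 5 was called, beside 4.77%: Emx1, which was lower (266 and 164 CPM, ratio 0.62).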

How the data were processed

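Single-cell RNA libraries (10x Genomics 3' chemistry, per the labels' protocols) were used as the deposited raw UMI counts per gene and barcode, which per the file headers come from Cell Ranger 7.1.0, whereas version 2.1.1 and the build mm10 stand in the submitters' processing notes. The libraries held 116998498 (WT) and 121321247 (cKO) UMIs. Cells passed the percentile 99 of the 5000 largest totals divided by 10, and 1000 UMIs, 500 genes and at most 10% mitochondrial UMIs. Doublets called by scrublet (scanpy 1.11.5) were removed, 3.61% and 4.89%. Cells were clustered on 2000 variable genes, 30 components, 15 neighbours and Leiden resolution 1. Clusters were named by rules settled after the clusters were seen: a marker found in 20% of cells and 1.5-fold over the rest, at least 3 of them, a lead of 1.5 times. The members and lists were chosen with earlier results of these data known. Every member was to be accounted for, with full values for those called in the 5 large classes and the highest class for the others. GENCODE vM21 (GRCm38) gave positions for 32235 of 32285 genes. The counting rule was tried on counts simulated with counting error only, which cannot speak to variation between libraries. Intervals treat UMIs as independent and cover counting error only. Some results are not reported here.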

Additional observations from a re-analysis of the deposited data

Results flagged for a closer look

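Several members were called higher in cKO in one class or unnamed cluster and lower in another, among groups with at least 100 cells per library. The difference between the groups was not tested in any of these cases. Sema5a had a ratio of 3.52 in the unnamed cluster 18 (Neurod4, Eomes, Pclaf) and 0.0778 in cluster 3. Sema3a had a ratio of 2.50 in astroglia and 0.46 in cluster 3. Sema6a had the reverse order, 0.38 in cluster 4 and 1.89 in cluster 3. Sema3c was at a ratio of 1.82 in GABAergic neurons and 0.41 in cluster 18, and Plxna4 at 1.57 in cluster 18 and 0.54 in cluster 3. Sema4c rests on few UMIs, with ratios of 1.54 in astroglia (87 and 106 UMIs) and 0.48 in the unnamed cluster 25 (36 and 14 UMIs).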

How the results depend on the processing

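The counts of called members and the 22 called ratios were recomputed under 13 other settings and 1 added after seeing the data, which left out clusters with over 90% of cells from 1 library. Of the 22 ratios, 18 kept their direction and 7 kept their call under all 14: Plxna2, Sema6d and Sema3f in glutamatergic neurons, Sema5a in intermediate progenitors, and Sema6d, Sema3a and Sema5a in cycling progenitors. The Sema5a ratio in glutamatergic neurons of 1.84 turned to 0.66 with doublet calls kept in, 0.21 with the UMI minimum doubled, 0.57 at 5% mitochondrial UMIs, 0.26 and 0.47 at Leiden resolutions 0.5 and 2, 0.32 with members among the variable genes, 0.70 with unnamed clusters added to the nearest class, and 0.45 with labels from WT clusters. Cluster 3, with a Sema5a ratio of 0.08, joins the class when unnamed clusters are added. The cause of the turn was not tested under any setting. Sema3a in the same neurons turned to 0.82 with the UMI minimum doubled and 1.00 at resolution 0.5. Nrp2 turned to 1.10 in astroglia with labels from WT clusters and to 2.09 in cycling progenitors with the UMI minimum doubled. Nrp1 in glutamatergic neurons ranged from 0.52 to 0.84. The 7 called members of glutamatergic neurons became 13 with doublet calls kept in or the UMI minimum doubled, and 12 at resolution 0.5, at resolution 2 or with members among the variable genes, with 9 or 10 of them lower. The count in intermediate progenitors went from 3 to 5 at 5% mitochondrial UMIs. The count in astroglia went from 5 to 2 with unnamed clusters added or with clusters weighted equally, and to 3 with cells thinned to 3000 UMIs. Cycling progenitors went from 5 to 3 with clusters weighted equally, and GABAergic neurons from 2 to 1 with doublet calls kept in. With clusters weighted equally GABAergic neurons also had 1, a lower call of another member, and both calls were lost. No paired analysis was possible because each genotype has 1 library. Depth limits Sema3b, Sema3d, Sema3e and Sema3f, and classes under 100 cells per library.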

Other observations

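Single GABAergic clusters had called members, some higher and some lower in cKO, and the difference between clusters was not tested. In cluster 23, led by Tac1 and Ebf1 (146 WT and 106 cKO cells), Sema6d was at 83.5 CPM in WT and 23.2 in cKO, a ratio of 0.28 (0.16 to 0.46), while Plxna1 (24.5 and 42.5 CPM) and Plxnc1 (52.1 and 83.6) were higher. That made 3 of 10 members called, beside 9.68% of all genes. In cluster 22, led by Sst and Npy (142 and 131 cells), Nrp2 was at 73.6 and 35.9 CPM (0.49) and Plxna4 at 124 and 80.5 (0.65), 2 of 9 members beside 4.52% of all genes. In cluster 10, led by Lhx8 and Lhx6 (235 and 445 cells), Sema6a was at 83.5 and 51.8 CPM (0.62) and Tcf4 at 443 and 746. Sema3c, Plxnb1 and Plxna3 were also lower there and Sema6b higher (10.5 and 18.9 CPM), 5 of 18 members beside 6.47% of all genes. Plxna2 in cluster 0, led by Trpc4 and Prdm12, was at 22.0 and 12.9 CPM (0.59), 1 of 24 members beside 2.47% of all genes. Cluster 6, led by Aldh1a3 and Slc18a2, had Sema6d and Sema5a lower, 2 of 17 beside 2.37%. Cluster 26 had Sema3c higher and Plxnc1 lower (85.8 and 48.5 CPM), 2 of 12 beside 4.58%. These clusters and genes were chosen after their values had been seen.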
